A study of Mus musculus with 143 samples.

Results

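The endocannabinoid receptor gene Cnr1, the gene of the protein that binds its tail, Cnrip1, and 6 genes of the enzymes that make or break down its ligands (Dagla, Daglb, Napepld, Mgll, Abhd6 and Faah) were followed in mouse striatum. These 8 genes were taken by name out of 41128 mouse genes in the count table, and all 8 were found there by their Ensembl identifiers and passed the filter on low counts. The study carried poly(A)-selected RNA-seq of 143 libraries from zQ175 mice, a knock-in model of Huntington's disease in which a long CAG repeat sits in the mouse Htt gene, and from wild-type (WT) mice. The mice had received HTT-10150, an siRNA against Htt, a non-targeting siRNA (NTC), or no treatment (Untreated), under 3 strategies. In 2[4]6, treatment fell at 2 months of age and the tissue was taken at 6 months. In 6[4]10, treatment fell at 6 months and the tissue was taken at 10 months, and in 2+6[8]10 treatment fell at 2 and at 6 months with the tissue taken at 10 months. Untreated animals of each strategy were collected at that strategy's age. The 18 groups held 8 libraries each, from 4 females and 4 males, except that WT mice given HTT-10150 under 2+6[8]10 numbered 7, with 2 females and 5 males. Background strain, zygosity, litters, siRNA dose and route do not appear in the labels, so the p-values measure the spread between these libraries.

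The CB1 receptor, made from Cnr1, sits on axon terminals, where it lowers transmitter release, and in the striatum its RNA is made mostly by the medium spiny projection neurons. Its ligand 2-arachidonoylglycerol (2-AG) is cut from diacylglycerol on the postsynaptic side, mainly by diacylglycerol lipase alpha (Dagla), and travels backwards across the synapse. It is destroyed mainly by monoacylglycerol lipase (Mgll). The other ligand, anandamide, can be released from its membrane precursor by the phospholipase D made from Napepld and is hydrolysed by fatty acid amide hydrolase (Faah).

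In the GENCODE M21 annotation of GRCm38 all 8 are protein-coding. Cnr1 (ENSMUSG00000044288) lies at chr4:33924593-33948831 on the plus strand and Faah (ENSMUSG00000034171) at chr4:115967145-116017926 on the minus strand. Cnrip1 (ENSMUSG00000044629) lies at chr11:17051586-17079371, plus strand. Of the lipases, Dagla (ENSMUSG00000035735) lies at chr19:10245265-10304877, minus strand, Daglb (ENSMUSG00000039206) at chr5:143464584-143505942, plus strand, Mgll (ENSMUSG00000033174) at chr6:88724412-88828360, plus strand, and Abhd6 (ENSMUSG00000025277) at chr14:8002902-8056763, plus strand. Napepld (ENSMUSG00000044968) lies at chr5:21662901-21701396, minus strand. Dagla, Mgll and Napepld overlap only antisense, pseudogene or unclassified (TEC) entries, whose reads may be counted with theirs. Of the 5 entries in Mgll, 3 lie on its own strand.

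Library totals ran from 12551712 to 29194390 counts, with a median of 18850278. Levels are given as library-scaled counts with TMM factors (CPM), which compare a gene between libraries, and in the length-scaled unit TPM, which also allows levels of different genes to be compared per length. The lowest of the 8 genes, Napepld, had 78 to 236 counts in a library, and the highest, Cnr1, had 1790 to 11462. Htt itself, the target of the siRNA, was lower in HTT-10150 than in NTC striatum in both genotypes under 2+6[8]10. It averaged 107.3 ± 11.7 CPM with HTT-10150 and 137.4 ± 5.03 CPM with NTC in zQ175 (SD, n = 8 each), and 116.1 ± 16 CPM (n = 7) and 161.3 ± 8.19 CPM (n = 8) in WT. The fitted log2 fold changes were -0.36 and -0.49, with adjusted p = 0.000346 and 5.01e-06 by edgeR. Under 2[4]6 and 6[4]10 the 4 Htt contrasts ran from -0.34 to -0.008 on the log2 scale and none passed adjustment, with adjusted p of 0.0567 to 0.993. By edgeR their unadjusted p was 0.877 in zQ175 and 7.21e-06 in WT under 2[4]6, and 0.000541 in zQ175 and 0.000208 in WT under 6[4]10. The WT groups with HTT-10150 and with NTC under 2[4]6 did not overlap.

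The 8 genes differed widely in level per length. Averaged over all 143 libraries, Cnr1 stood at 104.1 ± 41.8 TPM and Mgll at 89.6 ± 6.28 TPM. Dagla followed at 39.8 ± 4.49 TPM, Abhd6 at 38.6 ± 2.96 TPM and Cnrip1 at 33.5 ± 6.07 TPM. Daglb, at 19.9 ± 1.36 TPM, and Faah, at 18 ± 5.15 TPM, were close together, and Napepld was last in all 143 libraries at 4.34 ± 0.703 TPM (SD over libraries of both genotypes). Over the libraries of both genotypes together, the SD ranges of Dagla, Abhd6 and Cnrip1 overlapped, as did those of Daglb and Faah. Within single WT libraries Cnrip1 stood above Dagla in 0 of 71 and above Abhd6 in 1 of 71. In zQ175 libraries it stood above Dagla in 45 of 72 and above Abhd6 in 21 of 72.

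The order depended on genotype. The median level of Cnr1 was 64.9 TPM in zQ175 striatum, against 142.7 TPM in WT striatum, while that of Mgll was 89.5 TPM in zQ175 and 88.8 TPM in WT. Cnr1 exceeded Mgll in 4 of 72 zQ175 libraries and in 71 of 71 WT libraries. Its median ratio to Mgll was 0.716 in zQ175 and 1.59 in WT. The ratio of Cnr1 to Cnrip1 ranged from 0.905 to 2.65 in zQ175, below the whole range of 3.33 to 7.44 in WT. Faah stood above Daglb in 56 of 72 zQ175 libraries and in 1 of 71 WT libraries. Among the lipases of 2-AG, Dagla was above Daglb, and Mgll above both Dagla and Abhd6, in all libraries of both genotypes. Dagla stood above Abhd6 in 12 of 72 zQ175 libraries and in 63 of 71 WT libraries, with median ratios of 0.916 in zQ175 and 1.17 in WT.

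**Figure D1:**
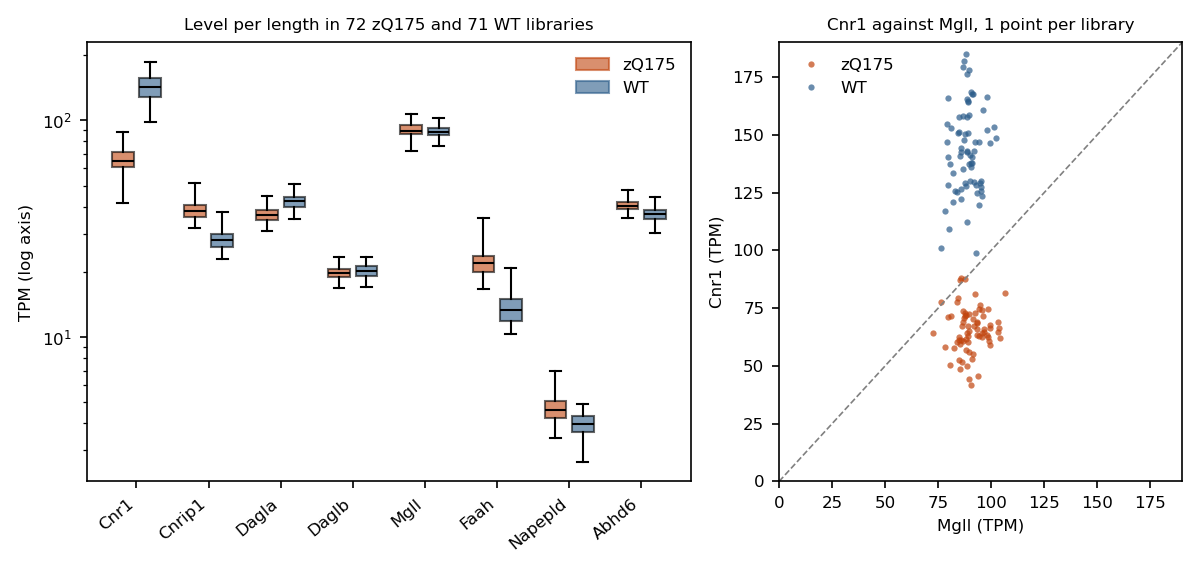
Left, levels of the 8 genes in TPM on a log axis in 72 zQ175 and 71 WT libraries (line, median; box, middle 50%; whiskers, lowest and highest library). Right, Cnr1 against Mgll in TPM, 1 point per library, with the line of equal level: 4 zQ175 points and all 71 WT points lie above it.

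The question addressed first was how the knock-in allele changes these genes, and it could be asked in 9 comparisons of zQ175 with WT mice that share no animal. Among untreated mice, 5 of the 8 genes differed under 2[4]6, 5 under 6[4]10 and 4 under 2+6[8]10 at an adjusted p under 0.05 by edgeR's quasi-likelihood test. Of all genes tested, 32.6%, 36.1% and 35.4% were called in these 3 comparisons. Among mice given NTC, 4, 4 and 5 of the 8 genes differed under 2[4]6, 6[4]10 and 2+6[8]10, with 34.4%, 32.8% and 42.1% of all genes called. Among mice given HTT-10150, 5 of 8 differed under each strategy, with 33.5%, 34.7% and 36.2% of all genes called. With this much of the transcriptome called, a count of 4 or 5 of 8 says little by itself, and the genes are described separately. The share of all genes whose genotypes did not overlap is not given here. Counts of comparisons free of overlap below therefore describe single genes and have no background. Cnr1 and Dagla fell, and Faah and Cnrip1 rose, in all 9 comparisons. Daglb fell in 4 of 9, Napepld and Abhd6 rose in 1 of 9 each, and Mgll passed in none.

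**Figure D2:**
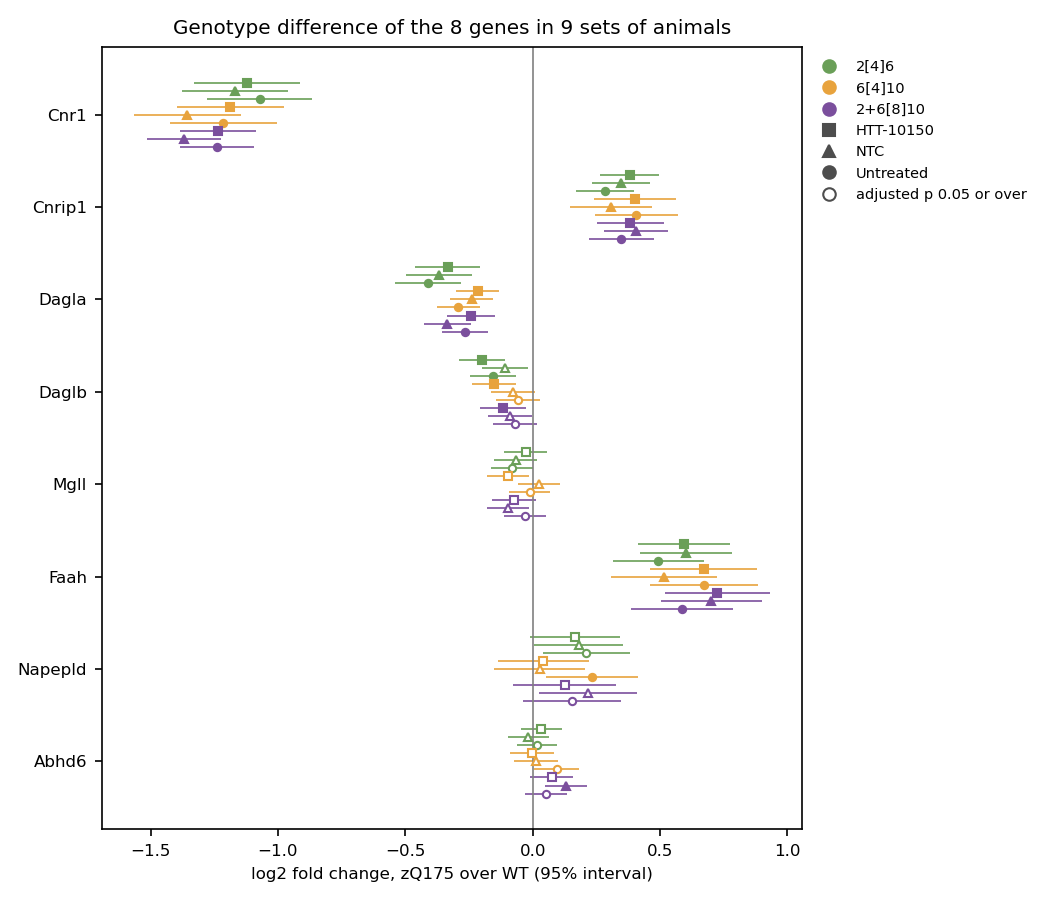
Log2 fold change of zQ175 over WT with its 95% interval for each of the 8 genes, in 9 disjoint sets of animals (colour, strategy; shape, treatment). Filled symbols mark adjusted p under 0.05: Cnr1 and Dagla lie left of 0, and Cnrip1 and Faah right of 0, with filled symbols in all 9 sets.

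Cnr1 was the member with the largest change. In untreated mice under 2[4]6 the lowest, median and highest zQ175 libraries had 171.3, 185.2 and 226.9 CPM, against 335.3, 401.4 and 478.6 CPM in WT. Under 6[4]10 the values were 133.8, 164.0 and 181.4 CPM in untreated zQ175 and 280.9, 373.1 and 431.4 CPM in untreated WT. Under 2+6[8]10 they were 152.8, 163.1 and 178.3 CPM in untreated zQ175 and 324.7, 381.3 and 438.7 CPM in untreated WT. The genotypes did not overlap in any of the 9 comparisons, nor over the series as a whole. The highest of 72 zQ175 libraries, at 230.7 CPM, was below the lowest of 71 WT libraries, at 259.6 CPM. The log2 fold changes in untreated mice were -1.07 ± 0.10 under 2[4]6, -1.22 ± 0.10 under 6[4]10 and -1.24 ± 0.072 under 2+6[8]10 (SE). Over all 9 comparisons they ran from -1.37 to -1.07, which is 0.387 to 0.476 of the WT level, with adjusted p of 5.71e-20 to 2.00e-11 (edgeR). Ordered by fold change from the most negative, Cnr1 stood within the first 0.426% to 0.844% of the 15506 to 15757 genes tested per strategy.

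The siRNA groups also differed in Cnr1 by genotype. With NTC, zQ175 mice averaged 181.2 ± 16.1, 143.6 ± 23.5 and 158.4 ± 17.9 CPM under 2[4]6, 6[4]10 and 2+6[8]10, and WT mice 408.1 ± 53.7, 368.6 ± 52.7 and 408.8 ± 49.7 CPM (SD, n = 8 each). With HTT-10150, zQ175 mice averaged 172.4 ± 34.7, 140.7 ± 26.8 and 158.4 ± 17.2 CPM (n = 8 each). WT mice with HTT-10150 averaged 374.4 ± 72.7 and 321.1 ± 32.8 CPM (n = 8 each) and 372.3 ± 31.8 CPM (n = 7). Among the 9 zQ175 groups the means lay between 140.7 CPM and 192.5 CPM, and among the 9 WT groups between 321.1 and 408.8 CPM. Within a genotype, neighbouring groups in this order differed by less than either SD, except the WT groups with HTT-10150 and with NTC under 6[4]10, at 321.1 and 368.6 CPM, and the zQ175 groups with HTT-10150 under 2[4]6 and untreated under 2+6[8]10, at 172.4 and 163.8 CPM.

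**Figure D3:**
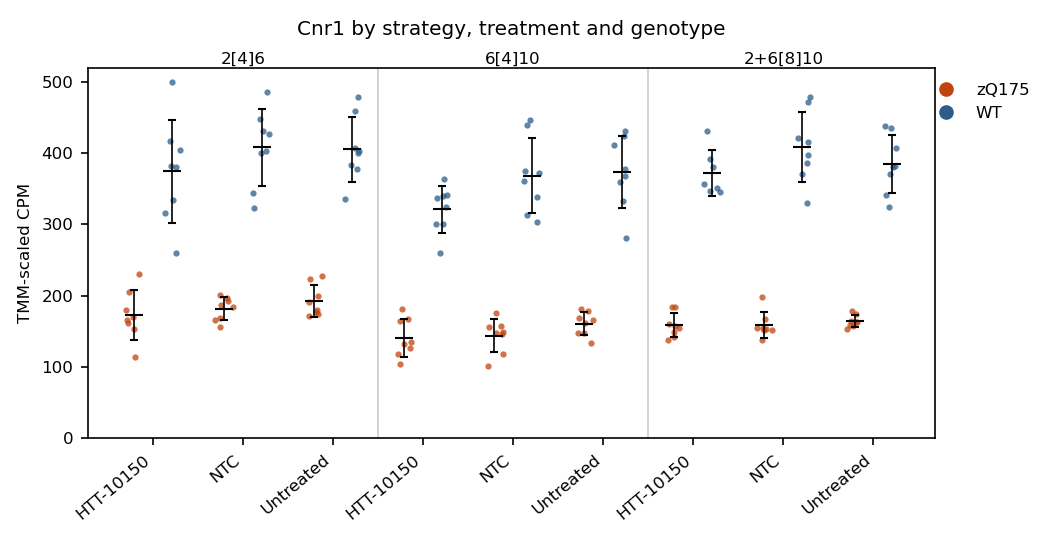
Cnr1 in TMM-scaled CPM in each of 143 libraries (points) by strategy, treatment and genotype, with the mean and SD of each group. All zQ175 points lie below all WT points.

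Markers of medium spiny neurons moved with Cnr1. Their summed level was 2904 to 5887 CPM in zQ175 libraries, against 7418 to 11235 CPM in WT libraries, and none of the 10 markers was at 0. In each of the 9 comparisons 9 of the 10 fell, the exception being Tac1, whose log2 fold changes were -0.085 to 0.16 with no call. The median log2 fold change was -0.84 for the dopamine receptor gene Drd1, -0.79 for Drd2 and -1.29 for Penk, the enkephalin precursor, beside -1.22 for Cnr1. The part of this marker loss in the change of Cnr1 was not tested, and in whole striatum fewer neurons and less RNA per neuron cannot be told apart. Markers of interneurons rich in CB1 (Cck, Vip and Htr3a) were summed at 6.15 to 69.8 CPM in zQ175 and 6.19 to 76.7 CPM in WT. Of the 3, Htr3a was called higher once in the 9 comparisons and the others not at all. In the zQ175 and WT libraries with the highest sums, markers of cortical and other glutamatergic neurons summed to 399.8 and 379.7 CPM. In those with the lowest sums they summed to 12.5 and 17.4 CPM. The part of cortical tissue in the interneuron sum was not tested, so it is not a measure of striatal interneurons alone.

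Cnrip1, whose product binds the cytoplasmic tail of CB1, went the other way. Untreated zQ175 libraries under 2[4]6 had 24.5, 27 and 28.7 CPM (lowest, median, highest), against 19.2, 21.9 and 26 CPM in WT. In 6[4]10 they had 22.5, 25.6 and 36 CPM in zQ175 and 16.9, 20.5 and 21.8 CPM in WT, and under 2+6[8]10 23.8, 26.2 and 29.3 CPM in zQ175 and 17.6, 21.2 and 24.2 CPM in WT. The medians of zQ175 were higher each time, the libraries of the 2 genotypes overlapped under 2[4]6 and 2+6[8]10 and did not under 6[4]10, and over the 9 comparisons 5 were free of overlap. Cnrip1 rose in all 9, to 1.22 to 1.33 times the WT level, a log2 fold change of 0.28 to 0.41, with adjusted p of 5.13e-07 to 0.00226 (edgeR). With NTC, the means of Cnrip1 under 2[4]6, 6[4]10 and 2+6[8]10 were 27.8 ± 2.29, 27.1 ± 2.77 and 28.7 ± 3.2 CPM in zQ175 and 21.9 ± 1.2, 22.1 ± 3.33 and 21.6 ± 1.7 CPM in WT (SD, n = 8 each). With HTT-10150 they were 27.2 ± 1.59, 28 ± 2.8 and 27.9 ± 2.12 CPM in zQ175 and 20.9 ± 2.37, 21.2 ± 2.22 and 21.3 ± 1.67 CPM in WT (SD, n = 8 each except 7 for the last WT value). In these 6 siRNA sets zQ175 was free of overlap with WT in 4, namely with NTC under 2[4]6 and 2+6[8]10 and with HTT-10150 under 6[4]10 and 2+6[8]10. The gene overlaps Plek on the opposite strand, and whether the counting used strand is not given in the sources used here.

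Of the diacylglycerol lipases, Dagla fell in every comparison and Daglb by less. Dagla had 83.8, 88.2 and 96.8 CPM in untreated zQ175 libraries under 2[4]6 (lowest, median, highest) and 104.4, 114.998 and 135.4 CPM in WT. Under 6[4]10 it had 86.2, 91.7 and 97.2 CPM in untreated zQ175 and 108.1, 112.7 and 116.9 CPM in untreated WT, and under 2+6[8]10 81.7, 84.3 and 93.5 CPM in untreated zQ175 and 94.2, 102.6 and 112.1 CPM in untreated WT. All 3 untreated comparisons were free of overlap, and 1 of the 6 among siRNA-treated mice. The NTC means of Dagla under 2[4]6, 6[4]10 and 2+6[8]10 were 90.8 ± 5.7, 94.6 ± 7.59 and 85.4 ± 3.8 CPM in zQ175 and 117.3 ± 13.2, 112.0 ± 6.54 and 107.5 ± 10.0 CPM in WT (SD, n = 8 each). Its HTT-10150 means were 89.5 ± 7.69, 92.4 ± 5.77 and 86.5 ± 5.93 CPM in zQ175 and 112.8 ± 14.1, 107.5 ± 6.07 and 102.1 ± 5.19 CPM in WT (SD, n = 8 each except 7 for the last WT value). The zQ175 mean was the lower one in each pair. The log2 fold changes in untreated mice were -0.41 ± 0.064, -0.29 ± 0.042 and -0.27 ± 0.046 (SE). Over the 9 comparisons the level in zQ175 was 0.752 to 0.861 of that in WT, with adjusted p of 3.07e-08 to 5.49e-05 (edgeR).

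Daglb, the second lipase of this kind, which is prominent in microglia, was at 25.4 to 27.4 CPM in the means of the 9 zQ175 groups and at 28.1 to 29.3 CPM in those of the 9 WT groups. In untreated mice the lowest, median and highest libraries had 24.3, 24.9 and 27.9 CPM in zQ175 and 26.9, 28.5 and 30.2 CPM in WT under 2[4]6, 25.5, 26.6 and 30.9 CPM in zQ175 and 24.5, 28.8 and 30.5 CPM in WT under 6[4]10, and 25.3, 26.9 and 28.8 CPM in zQ175 and 24.6, 28.4 and 31.6 CPM in WT under 2+6[8]10. The log2 fold change was below 0 in all 9 comparisons, from -0.20 to -0.057. Daglb fell in 4 of them: untreated mice under 2[4]6 (adjusted p = 0.00502, edgeR) and mice given HTT-10150 under 2[4]6, 6[4]10 and 2+6[8]10 (adjusted p = 0.000464, 0.005 and 0.0351). The genotypes overlapped in every set. Daglb overlaps Rac1 on the opposite strand, so that without strand its reads and those of Rac1 could not be fully separated. Of these 4 calls only that of HTT-10150-treated mice under 2[4]6 held in all alternatives tried. The call in untreated mice under 2[4]6 was lost without replicate 3 (-0.12), and that of HTT-10150-treated mice under 6[4]10 without replicate 2 (-0.12) or 3 (-0.12). The call under 2+6[8]10 was lost without replicate 1 (-0.10), 2 (-0.12) or 4 (-0.10) and in 4 other fits. Summed over 5 genes, microglial markers were at 226.8 to 327.5 CPM in zQ175 and 247.4 to 344.5 CPM in WT libraries, and each of the 5 was called lower in 3 to 7 of the 9 comparisons. Their part in the values of Daglb was not tested.

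The enzymes that hydrolyse 2-AG gave no repeated call. Mgll had 141.8, 145.7 and 172.8 CPM in untreated zQ175 libraries (lowest, median, highest) and 150.3, 155.6 and 168.7 CPM in WT under 2[4]6. In 6[4]10 it had 130.5, 142.9 and 171.8 CPM in zQ175 and 135.7, 149.6 and 157.6 CPM in WT, and under 2+6[8]10 122.0, 146.0 and 168.1 CPM in zQ175 and 139.0, 143.1 and 170.5 CPM in WT. The groups overlapped throughout. Its log2 fold changes over the 9 comparisons were -0.10 to 0.024, with no adjusted p under 0.0539, and their 95% intervals together reached from -0.18 to 0.11. A difference as large as that of Dagla in the same direction therefore lay outside every interval, while small differences in either direction did not. With NTC the means of Mgll under the 3 strategies were 152.9 ± 8.61, 150.6 ± 9.17 and 146.9 ± 11.8 CPM in zQ175 and 160.3 ± 11.5, 148.6 ± 10.7 and 156.9 ± 10.5 CPM in WT (SD, n = 8 each). HTT-10150 mice averaged 151.1 ± 14.4, 147.2 ± 6.65 and 151.1 ± 6.12 CPM in zQ175 and 154.1 ± 14.2, 157.6 ± 3.52 and 161.1 ± 6.61 CPM in WT (SD, n = 8 each except 7 for the last WT value). DESeq2 called Mgll lower in 1 of the 9 comparisons, that of mice given HTT-10150 under 6[4]10 (-0.10, adjusted p = 0.0437). Over all alternatives it was called lower at least once in 3 of the 9, with log2 fold changes of -0.13 to -0.10 there. Abhd6, a membrane lipase that cuts 2-AG on the postsynaptic side, averaged 33.4 to 35.7 CPM in the zQ175 groups and 32.2 to 35.3 CPM in the WT groups. Untreated libraries again overlapped: the lowest, median and highest libraries had 34.5, 35.7 and 37.2 CPM in zQ175 and 31.9, 35.3 and 37.9 CPM in WT under 2[4]6, 33, 35 and 36.2 CPM in zQ175 and 29.7, 33 and 35.8 CPM in WT under 6[4]10, and 33.2, 35.5 and 37.9 CPM in zQ175 and 32.5, 34.7 and 36.1 CPM in WT under 2+6[8]10. Abhd6 rose in NTC-treated mice under 2+6[8]10 by 0.13 on the log2 scale (adjusted p = 0.0074, edgeR) and was not called in the other 8, whose log2 fold changes were -0.017 to 0.094.

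Faah was the enzyme gene with the largest change, and it was higher in zQ175. Untreated zQ175 libraries had 27.8, 30.3 and 34.1 CPM (lowest, median, highest) under 2[4]6, against 18.3, 21.4 and 27.3 CPM in WT. Under 6[4]10 the values were 27.5, 31.7 and 43.4 CPM in zQ175 and 17, 20.9 and 23.7 CPM in WT, and under 2+6[8]10 25.8, 29.7 and 33.7 CPM in zQ175 and 16.5, 19.1 and 25.7 CPM in WT. In these 3 sets each zQ175 library was above each WT library, and over the 9 comparisons 6 were free of overlap. Among NTC mice Faah averaged 30.6 ± 4.02, 32 ± 2.62 and 32.5 ± 3.86 CPM in zQ175 and 20.2 ± 2.06, 22.4 ± 4.43 and 19.9 ± 2.11 CPM in WT (SD, n = 8 each). Among HTT-10150 mice it averaged 31.4 ± 4.08, 34.3 ± 5.79 and 34.1 ± 5.45 CPM in zQ175 and 21 ± 4.2, 21.6 ± 3.56 and 20.3 ± 4.23 CPM in WT (SD, n = 8 each except 7 for the last WT value). The strategies are in the same order as above, and the zQ175 mean was the higher one in each pair. The log2 fold changes in untreated mice were 0.49 ± 0.089, 0.67 ± 0.10 and 0.59 ± 0.10 (SE). Over the 9 comparisons Faah was 1.41 to 1.65 times the WT level, with adjusted p of 1.11e-07 to 0.000105 (edgeR), and it stood within the highest 1.5% to 3.65% of all genes in the order of fold changes.

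Napepld, which encodes the enzyme on the synthesis side of anandamide, was at 7.21 to 8.34 CPM in the means of the zQ175 groups and 6.61 to 7.22 CPM in those of the WT groups. Its lowest, median and highest libraries had 6.99, 7.94 and 8.95 CPM in zQ175 and 5.64, 6.87 and 8.31 CPM in WT under 2[4]6, 6.56, 7.63 and 9.31 CPM in zQ175 and 4.65, 6.61 and 8.23 CPM in WT under 6[4]10, and 6.32, 8.08 and 11 CPM in zQ175 and 6.62, 7.13 and 8.57 CPM in WT under 2+6[8]10. These ranges overlapped under each strategy. The log2 fold changes lay above 0 in all 9 comparisons, from 0.028 to 0.23. It rose in untreated mice under 6[4]10 (adjusted p = 0.0364, edgeR) and was not called in the other 8, where adjusted p was 0.0522 at the lowest. That call was lost without replicate 1 (0.22), 2 (0.25), 3 (0.24) or 4 (0.22) and in 3 other fits, all with a log2 fold change above 0. Conversely, in untreated mice under 2[4]6 it was called in 5 alternative fits, with adjusted p of 0.00479 to 0.0491 by edgeR or DESeq2, and in 3 other comparisons in 1 alternative fit each. Over the 9 sets its 95% intervals reached from -0.15 to 0.41, and those of Faah from 0.31 to 0.93. These ranges overlap, and the changes of Napepld and Faah were not tested against each other.

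**Figure D4:**
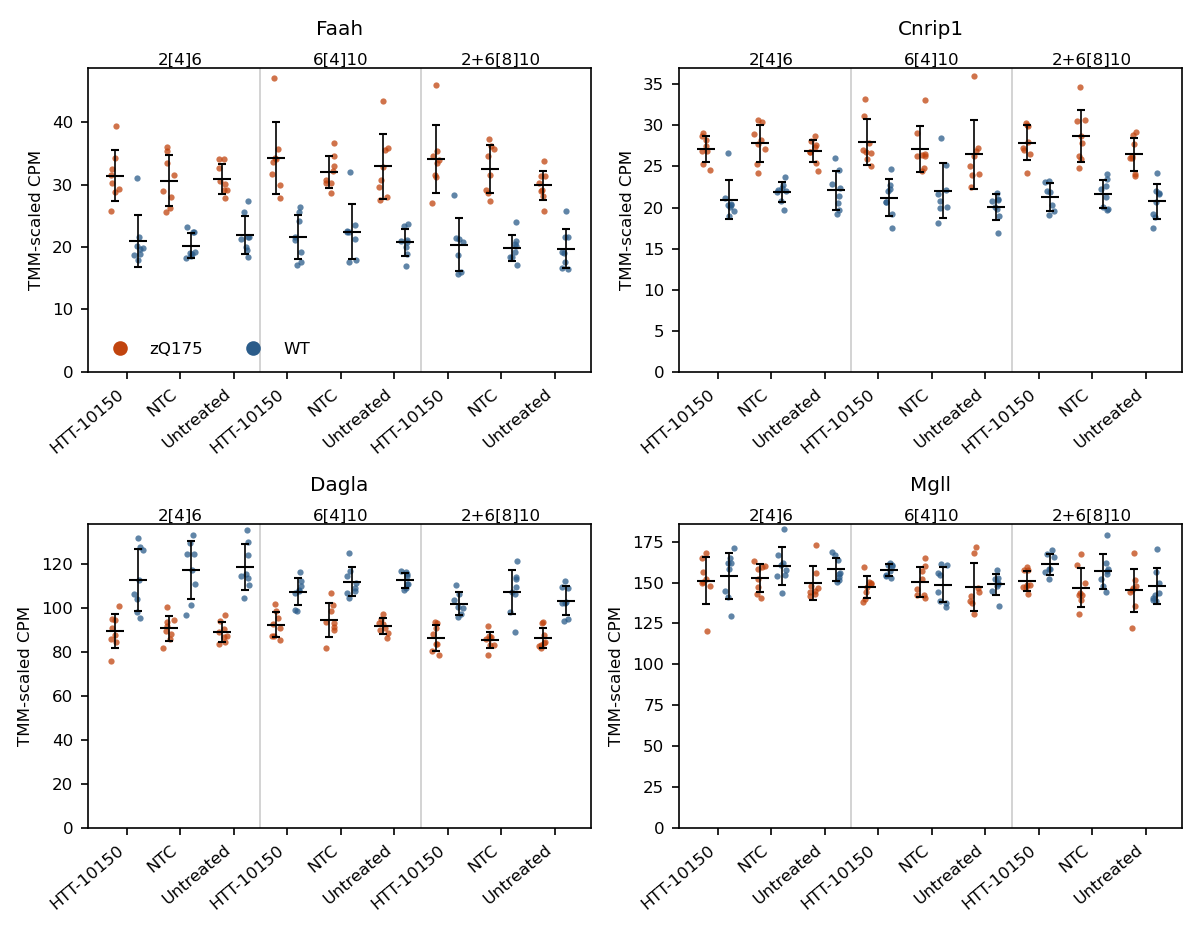
Faah, Cnrip1, Dagla and Mgll in TMM-scaled CPM in each of 143 libraries (points), with the mean and SD of each group; zQ175 is left of WT in each pair. Faah and Cnrip1 are higher and Dagla is lower in zQ175, with a few libraries of Faah and Cnrip1 far above the rest of their group, while the genotypes overlap in Mgll.

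Libraries differed in markers of neighbouring tissue. The summed level of 5 markers of cortical and other glutamatergic neurons ran from 12.5 to 399.8 CPM in zQ175 libraries and from 10.4 to 386.3 CPM in WT libraries, with medians of 67.5 and 65.3 CPM. None of the 5 was at 0 in the median library and none was called in any of the 9 comparisons. In 4 groups 1 library stood apart from the rest in Faah, and in 2 groups 1 stood apart in Cnrip1, and each of these libraries also had the highest cortical sum of its group. The part of these markers in the values was not tested within groups. With the summed cortical and choroid plexus markers as covariates, the log2 fold changes of Faah were 0.55 to 0.70 and those of Cnrip1 0.32 to 0.42, all called in the 9 comparisons. Without the 16 libraries whose cortical sum was over 3 times the median, those of Faah were 0.58 to 0.76 and those of Cnrip1 0.32 to 0.44, and Cnr1 and Dagla likewise stayed called in all 9 comparisons under both settings.

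The per-length scale shifted all of these values by about the same amount. The ratio of mean TPM in zQ175 to that in WT, on the log2 scale, was higher than the ratio of mean CPM by 0.077 to 0.0874 for the 8 genes and by 0.0843 for the median of 14220 genes. The directions of Cnr1, Dagla, Faah and Cnrip1 were the same on both scales. Mgll averaged 149.1 CPM and 90.5 TPM in zQ175, against 154.7 CPM and 88.6 TPM in WT, so that its small difference changed sign with the scale. Daglb was at 19.7 TPM in zQ175 and 20.1 TPM in WT, a smaller gap than on the CPM scale.

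The promoter sequences of Cnr1, Faah and Cnrip1 are printed because these were the genes with the largest median changes over the 9 comparisons, 1 lower and 2 higher in zQ175, so that their start regions can be set side by side. Dagla changed more than Cnrip1 in untreated and NTC-treated mice under 2[4]6. They are RefSeq windows of GRCm38.p6, from 250 bases before to 50 bases after an annotated start. The table held 11 windows for 7 of the 8 genes and none for Dagla. Capitals mark GC boxes, read as GGGCGG on either strand, in the first Cnr1 window (chr4:33924014-33924313, plus strand), in Faah (chr4:116017875-116018174, minus strand) and in Cnrip1 (chr11:17051609-17051908, plus strand), each written 5′ to 3′ along the gene.
Cnr1: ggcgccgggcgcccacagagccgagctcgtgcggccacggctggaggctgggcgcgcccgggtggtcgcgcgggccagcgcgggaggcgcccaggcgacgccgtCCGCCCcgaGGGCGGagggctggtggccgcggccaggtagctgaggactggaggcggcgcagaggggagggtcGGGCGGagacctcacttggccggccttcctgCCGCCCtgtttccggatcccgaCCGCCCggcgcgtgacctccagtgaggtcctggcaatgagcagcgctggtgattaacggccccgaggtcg
Faah: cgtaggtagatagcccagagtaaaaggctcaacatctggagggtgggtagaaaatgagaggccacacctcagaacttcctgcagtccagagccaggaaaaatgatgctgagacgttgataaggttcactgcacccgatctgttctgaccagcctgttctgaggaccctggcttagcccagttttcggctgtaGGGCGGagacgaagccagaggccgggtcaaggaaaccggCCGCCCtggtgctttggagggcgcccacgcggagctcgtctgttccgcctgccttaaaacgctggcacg
Cnrip1: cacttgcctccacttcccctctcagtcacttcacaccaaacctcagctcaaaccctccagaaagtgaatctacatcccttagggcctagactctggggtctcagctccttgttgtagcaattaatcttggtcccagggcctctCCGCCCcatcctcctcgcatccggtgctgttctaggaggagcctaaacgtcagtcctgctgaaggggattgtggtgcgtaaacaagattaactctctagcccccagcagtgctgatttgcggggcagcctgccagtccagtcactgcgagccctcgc

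The first Cnr1 window held 5 GC boxes, that of Faah 2 and that of Cnrip1 1. At least 1 GC box was present in 35.7% of all 32851 windows of this length, and 5 or more in 2.71%. The remaining pair of Cnr1 windows, at chr4:33924394-33924693 and chr4:33926130-33926429, held none. The cAMP response element core TGACG, searched on both strands, was present once in the Cnrip1 window, in none of the Cnr1 or Faah windows and in 20.8% of all windows. The letters TATAAA, searched on both strands, were absent from the windows of all 7 genes and present in 13.6% of all windows. CpG pairs numbered 40, 33 and 5 in the 3 Cnr1 windows, 16 in that of Faah and 8 in that of Cnrip1, against a median of 7 over all windows.

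Patterns like those of the 8 genes were looked up among 13132 genes across the 18 group means of log2 CPM, as a description. Cnr1 was most like Arpp19, Neto2, Scn4b, Itga9 and Drd1, with Pearson's r of 0.997 down to 0.996. Dagla was most like Dlg4 (0.987) and Add1 (0.987), Faah like Gng3 (0.99) and Nagk (0.989), and Cnrip1 like Zcchc18 (0.989) and Nicn1 (0.985). The values were lower for Daglb, with Bmp6 at 0.939 and Lrrc32 at 0.935, and for Napepld, with Dpp10 at 0.943 and Msh6 at 0.933. Abhd6 reached 0.857 with Yars2 and 0.853 with Uap1, and Mgll only 0.799 with Txnl4b and 0.797 with Nrsn1. The 18 means fall into 9 of each genotype, so a gene with a steady genotype difference resembles any other such gene.

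Other genes of the pathway were taken from 7 lists of 39 genes, of which 34 could be tested between zQ175 and WT in at least 1 strategy. In untreated mice 6 rose and 17 fell of 34 under 2[4]6, 10 rose and 12 fell of 34 under 6[4]10, and 7 rose and 13 fell of 33 under 2+6[8]10. Of all genes tested, 32.6%, 36.1% and 35.4% were called in these 3 comparisons. The median log2 fold changes of the lists together were -0.11, -0.06 and -0.082, beside 0.00354, 0.0107 and 0.00305 over all genes tested. The genes named next are those called in 1 direction in all 3 untreated comparisons, unless said otherwise.

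Upstream of 2-AG synthesis, 7, 6 and 5 of 10 genes fell under the 3 strategies in untreated mice, and 1, 2 and 1 rose, beside 32.6%, 36.1% and 35.4% of all genes called in either direction. The glutamate receptor gene Grm5, whose product stimulates phospholipase C, fell in all 9 comparisons of zQ175 with WT, with a median log2 fold change of -0.49. Chrm1, a muscarinic receptor gene, fell in all 9 at a median of -0.24. Among the phospholipase C genes, Plcb1 fell in all 9 at a median of -0.52 and Plcb3 in 8 of 9 at -0.22, whereas Gnaq, the G protein subunit between receptor and phospholipase, rose in 6 of 9 at a median of only 0.10. Of 2 regulators of diacylglycerol lipase alpha, Homer2 was called in none of the 3 untreated comparisons. Camk2a, a kinase known to phosphorylate this lipase, fell in all 9 at a median of -0.29, close to the -0.29 of Dagla.

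Among partners and effectors of CB1, 4 of 9 genes fell and 2, 3 and 3 rose in untreated mice under the 3 strategies, beside the same 32.6%, 36.1% and 35.4% of all genes called. Adcy5, the adenylyl cyclase of striatal neurons that CB1 inhibits through Gi and Go proteins, fell in all 9 comparisons at a median log2 fold change of -0.87. The Go subunit gene Gnao1 fell in all 9, at -0.26, and the Gi subunit gene Gnai1 rose in all 9, at 0.16. Gprasp1, whose product sorts receptors to lysosomes, rose in all 9 at 0.35. Arrb1, a beta-arrestin gene, fell in all 9 at -0.18, and Sgip1, whose product binds CB1 and slows its internalisation, fell in 7 of 9 at -0.12.

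On the anandamide side, 1 gene rose and 3 fell of 6 tested on other routes to N-acylethanolamines under 2[4]6, 1 rose and none fell of 6 under 6[4]10, and 1 rose and 1 fell of 5 under 2+6[8]10, in untreated mice and beside the same background of 32.6%, 36.1% and 35.4% of all genes called. Gdpd1, a lysophospholipase D gene, was the one that rose each time, and it did so in all 9 comparisons at a median log2 fold change of 0.16. Of 3 fatty acid binding protein genes, listed as intracellular carriers, 2, 2 and 1 rose and 0, 0 and 1 fell under the 3 strategies. Fabp3 rose in 8 of 9 comparisons at a median of 0.17. The rest of this list is given to complete it: Fabp7 rose in 5 of 9 at 0.26, and Fabp5 fell in 6 of 9 at -0.17. In the list of other hydrolases and oxidising enzymes, 0, 2 and 1 of 3 genes rose and 1, 0 and 1 fell. The second cannabinoid receptor gene Cnr2, together with Gpr18, Gpr119, Trpv1 and the enzyme gene Gdpd3, had too few counts to be tested between zQ175 and WT under any strategy. Gpr55, the only gene of the other receptors that could be tested between zQ175 and WT, fell in 7 of 9 comparisons at a median of -0.50. It is named because its list holds no other gene tested in those comparisons, although it was called in only 2 of the 3 untreated comparisons.

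The next question was whether HTT-10150 changes these genes relative to the non-targeting siRNA. These comparisons reuse the animals of the genotype comparisons. In zQ175 mice none of the 8 genes was called under 2[4]6, 6[4]10 or 2+6[8]10, where 0%, 0% and 3.16% of all genes tested were called by edgeR. In WT mice none of the 8 was called either, with 0.00636%, 0% and 0.0129% of all genes called. At an unadjusted p under 0.05, 1 of these 48 values passed, Mgll in WT mice under 6[4]10 (log2 fold change 0.088), and DESeq2 called none. Under 2+6[8]10, where Htt itself was lowered, the log2 fold change in zQ175 was 0.0024 for Cnr1 (95% interval -0.14 to 0.15), 0.022 for Dagla (-0.069 to 0.11), 0.074 for Faah (-0.11 to 0.26) and -0.039 for Cnrip1 (-0.16 to 0.084). In NTC mice of the same strategy the genotype difference of Cnr1 was -1.37, so a shift of that size towards the WT level lay outside its interval, while shifts within the interval could not be told from 0. Over both genotypes and all strategies, the Cnr1 contrasts ran from -0.20 to 0.00241, with 95% intervals between -0.40 and 0.18. For the other genes the 6 contrasts ran from -0.055 to 0.10 for Faah (intervals between -0.27 and 0.30), from -0.07 to 0.044 for Cnrip1 and from -0.071 to 0.022 for Dagla. They ran from -0.065 to 0.028 for Daglb, from -0.058 to 0.088 for Mgll, from -0.06 to 0.048 for Abhd6 and from -0.084 to 0.05 for Napepld, the gene with the fewest counts.

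The direct test of whether HTT-10150 acted differently in zQ175 than in WT gave no call among the 8 genes under 2[4]6, 6[4]10 or 2+6[8]10, with 0%, 0% and 0.529% of all genes called by edgeR. Before adjustment 1 of these 24 values passed 0.05 (Mgll under 6[4]10, -0.12 on the log2 scale), and no gene of the 8 was called by DESeq2. The non-targeting siRNA set against no treatment, which uses the same NTC animals, gave none of the 8 in zQ175, with 0%, 0% and 0% of all genes called, and none in WT, with 0%, 0% and 0.181%. At an unadjusted p under 0.05, 2 of these 48 passed, both in WT under 2+6[8]10: Mgll at 0.086 and Abhd6 at -0.092. DESeq2 called none. Of the pathway lists, 3 genes of 33 were called with HTT-10150 in zQ175 under 2+6[8]10, beside 3.16% of all genes tested there. None was called elsewhere with HTT-10150. The count is small enough to name these 3 genes, although they were chosen after their values were seen. Plcb1 fell by 0.14 and Sgip1 by 0.12 on the log2 scale relative to NTC, and Gde1, a phosphodiesterase gene of anandamide synthesis, rose by 0.082.

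**Figure D5:**
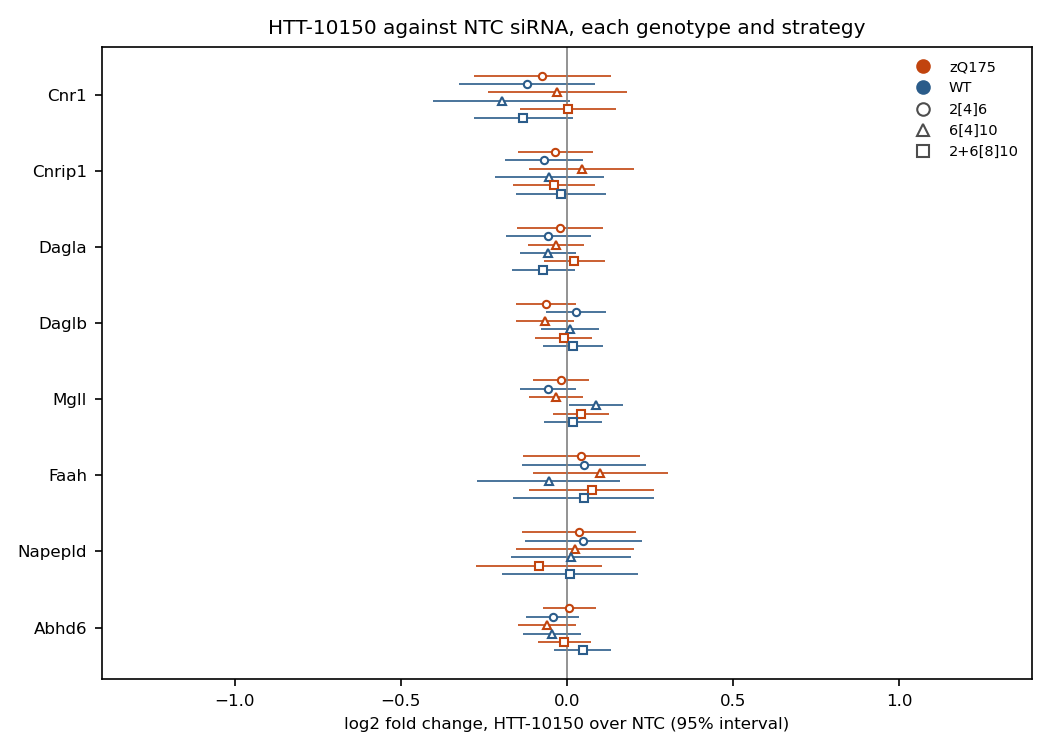
Log2 fold change of HTT-10150 over NTC with its 95% interval for the 8 genes in zQ175 and WT mice (colour) under each strategy (shape). All symbols are open because no adjusted p was under 0.05, and 47 of the 48 intervals include 0.

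Whether the genotype difference changed with strategy was tested on untreated mice. None of the 8 genes was called for a larger or smaller difference in 6[4]10 than in 2[4]6 (0.835% of all genes called), in 2+6[8]10 than in 2[4]6 (0.0675%) or in 2+6[8]10 than in 6[4]10 (0.0123%). Age and cohort differ together between 2[4]6 and the other strategies and cannot be told apart here. For Cnr1 the change of the genotype difference from 2[4]6 was -0.15 in 6[4]10 (95% interval -0.41 to 0.11). In 2+6[8]10 it was -0.16 (-0.43 to 0.10) on the log2 scale. Both were on the side of a larger loss and neither passed the test. For Dagla the same 2 changes were 0.11 (-0.031 to 0.26) and 0.15 (0.0055 to 0.30), on the side of a smaller loss. The second of these alone among the 24 values passed 0.05 before adjustment, and DESeq2 called none.

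In untreated WT mice, age and cohort cannot be told apart in the comparisons with 2[4]6. Tissue of 2+6[8]10 and 6[4]10 was taken at the same age, 10 months. None of the 8 was called between 2+6[8]10 and 6[4]10 (9.09% of all genes called). None was called between 6[4]10 and 2[4]6 (16.4%), and 1 was called between 2+6[8]10 and 2[4]6 (7.57%). The call was Dagla, at 103.4 ± 6.6 CPM under 2+6[8]10 and 118.6 ± 10.4 CPM under 2[4]6 (SD, n = 8 each), a log2 fold change of -0.19 (adjusted p = 0.0196, edgeR). The call was lost without replicate 1, 3 or 4, with log2 fold changes of -0.19, -0.17 and -0.16. The other 10-month cohort, 6[4]10, was at -0.073 relative to 2[4]6 and was not called. In the comparisons with no call, 2 genes between 6[4]10 and 2[4]6 (Cnr1 and Abhd6) and 1 between 2+6[8]10 and 6[4]10 (Dagla) passed 0.05 before adjustment, and DESeq2 called none.

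Sex was a term of every fit, and 2 of the 8 genes differed by it. Under 2[4]6, 2 of 8 were called, against 16.6% of all genes; under 6[4]10 none was, against 2.21%; and under 2+6[8]10 1 was, against 2.1%. Mgll was lower in females, with log2 fold changes of -0.13 (adjusted p = 0.000313, edgeR) under 2[4]6, -0.076 (0.0692, not past the threshold; DESeq2 called it) under 6[4]10 and -0.10 (0.0197) under 2+6[8]10. The call of Mgll under 2+6[8]10 was lost without replicate 1 (-0.084), 2 (-0.093) or 3 (-0.11). Abhd6 was higher in females under 2[4]6 by 0.066 (adjusted p = 0.0399), a call lost without replicate 1 (0.055), 2 (0.07) or 4 (0.045), and at 0.056 and 0.029 under 6[4]10 and 2+6[8]10 it was not called. In 6[4]10, where edgeR called none, these were the 2 genes of the 8 with an unadjusted p under 0.05. For Cnr1 the sex difference was 0.12, -0.059 and 0.00496 under the 3 strategies and was not called.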

How the data were processed

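Poly(A)-selected RNA-seq of 143 striatal libraries was analysed, 1 per animal as the labels give them. RSEM and the GRCm38 genome are named in the submitters' processing notes. The authors deposited a table of RSEM expected counts and a second table named for FPKM; since every column of that second table sums to 1e+06, its values were read as TPM, as deposited by the authors. The labels name no aligner, annotation release or strand setting. Gene positions are from GENCODE M21, and promoter windows from RefSeq on GRCm38.p6.

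Expected counts were rounded to whole numbers (78.2% of the nonzero values already were). 7 entries that name no mouse gene, with 5.91e-06% of all counts, were left out. Libraries held 12551712 to 29194390 counts. CPM values use TMM factors over all 143 libraries. Differences were tested with edgeR 4.0.16 (R 4.3.3) by quasi-likelihood after filterByExpr, in 1 fit per strategy that held 6 groups and a sex term. Between strategies all 143 libraries were fitted with sex within strategy. P-values were adjusted by Benjamini-Hochberg over all genes tested, called at 0.05, and intervals are 95%. Tables and figures were made with python 3.11.15, pandas 2.3.3 and matplotlib 3.10.9.

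The fits were tested on simulated data for untreated mice under 2[4]6, with the same dispersion for all genes. At a simulated log2 fold change of 1, edgeR and DESeq2 each recovered 100% of the changed genes. At 0.4 edgeR recovered 51% and DESeq2 56%, and smaller changes were not simulated. DESeq2 1.42.0, RLE factors, no count filter, no sex term, a fit of only the groups compared, a replicate block and leaving out each replicate number were alternatives. Marker sums as covariates, and leaving out the 16 libraries whose cortical marker sum was over 3 times the median, were chosen after seeing the data.

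The genes and lists were chosen with earlier results of these data known. Named besides the 8 genes and Htt are pathway genes called in 1 direction in all 3 untreated genotype comparisons and the genes most like each member by Pearson's r over 18 group means, with a prior count of 2 and a mean log2 CPM over 1 (5 for Cnr1, 2 for the others). A pathway gene that met this rule is not reported here. Markers of 11 lists were summed per library: striatal interneurons had 263.5 to 367.4 CPM in zQ175 and 326.7 to 407.0 CPM in WT, astrocytes 2195 to 3183 CPM in zQ175 and 3152 to 3981 CPM in WT, oligodendrocytes 4523 to 9312 CPM in zQ175 and 7371 to 10397 CPM in WT, and choroid plexus 6.62 to 5055 CPM in zQ175 and 16.4 to 2550.4 CPM in WT.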

Additional observations from a re-analysis of the deposited data

Results flagged for a closer look

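With 8 genes in 18 groups, a single library stood apart from the others of its group in 11 sets of 1 gene in 1 group, by a gap that chance gives in about 1 of 20 such sets. Faah had such a library in 4 groups. It was at 47.1 CPM in male 2 of zQ175 mice given HTT-10150 under 6[4]10, where the other 7 had 27.8 to 35.7 CPM, and at 45.9 CPM in female 3 of zQ175 mice given HTT-10150 under 2+6[8]10, where the others had 27 to 35.4 CPM. In WT mice it was at 31 CPM in male 1 given HTT-10150 under 2[4]6, against 17.9 to 21.5 CPM in the others, and at 32 CPM in female 4 given NTC under 6[4]10, against 17.7 to 23.4 CPM in the others.

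Cnrip1 stood apart in a pair of libraries, at 36 CPM in male 4 of untreated zQ175 mice under 6[4]10 (others 22.5 to 27.2 CPM) and at 26.6 CPM in the same WT male 1 (others 19 to 21.1 CPM). The same zQ175 male 4 was also apart in Daglb, at 30.9 CPM (others 25.5 to 27.3 CPM). The summed cortical markers of the 5 libraries named so far were 288.3 to 399.8 CPM, above all others of their groups, which had at most 188.6 CPM. Their part in these values was not tested.

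Mgll was at 120.5 CPM in female 4 of zQ175 mice given HTT-10150 under 2[4]6, below the 147.6 to 167.8 CPM of the others. Choroid plexus markers of that library summed to 3788.8 CPM, against at most 874.1 CPM in the others. Its medium spiny markers, at 3842 CPM, were the lowest of its group. Mgll was at 172.8 CPM in male 2 of untreated zQ175 mice under 2[4]6, above the 141.8 to 155.6 CPM of the others. That male had the highest cortical sum of its group, 173.8 CPM against at most 106.6 CPM. The part of these markers in the Mgll values was not tested. Napepld was at 9.42 CPM in female 4 of zQ175 mice given NTC under 2[4]6 (others 6.88 to 7.87 CPM) and at 8.57 CPM in female 4 of untreated WT mice under 2+6[8]10 (others 6.62 to 7.22 CPM). Neither of these libraries had a high cortical sum. It was 97.6 CPM in the zQ175 female (others 34.1 to 250.5 CPM) and 22.4 CPM in the WT female (others 24.8 to 209.9 CPM).

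An entry of the count table for a mutant form of Htt, used in no comparison here, summed to 156.5 expected counts over zQ175 libraries, with values above 0 in 64 of 72, and to 0.133 over WT libraries, with a value above 0 in 1 of 71.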

How the results depend on the processing

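The calls of Cnr1, Cnrip1, Dagla and Faah between zQ175 and WT held in all 9 comparisons under every alternative run, replicates left out included. No value changed sign with a call. In the sex comparison, the count of genes called under 2[4]6 was 2 and became 1 with no filter on low counts and 1 to 2 with a replicate number left out. Under 6[4]10 it was 0 and became 1 with DESeq2. Under 2+6[8]10 it was 1 and became 0 to 1 with a replicate number left out and 0 without the libraries over 3 times the median cortical marker sum. Between 2+6[8]10 and 2[4]6 in untreated WT mice it was 1, and 0 to 1 with a replicate number left out. The causes were not tested.

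Replicate numbers in the labels are shared by all groups, but nothing in the labels says that they pair animals. The correlation of deviations between same-numbered libraries ran from -0.387 to 0.637, with means of 0.114, 0.052 and 0.0328 under the 3 strategies. Between libraries of the same sex with other numbers the means were -0.0361, -0.0168 and -0.0101. Same-numbered libraries were thus somewhat more alike on average under each strategy, and what the number stands for is not given in the labels. With a block for that number in each sex, the counts of the 8 genes called between zQ175 and WT were 6, 5 and 5 under 2[4]6, 5, 4 and 5 under 6[4]10 and 4, 6 and 4 under 2+6[8]10 in untreated, NTC-treated and HTT-10150-treated mice. The share of all genes called in these block fits is not given here. In the main fits it was 32.6% to 42.1%, so such counts say little by themselves. Napepld, at 78 to 236 counts a library, had the lowest depth of the 8 genes.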
